A study of Mus musculus with 28 samples.

Results

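The AP-1 transcription factors measured here are 8 genes of the bZIP (basic leucine zipper) family, namely Fos, Fosb, Fosl1, Fosl2, Jun, Junb, Jund and Atf3. They were taken by name, as family members, from the 32594 genes counted in mouse pituitary RNA, and all 8 are in the table. An AP-1 complex is a dimer that binds DNA through its basic regions. Fos proteins cannot pair with themselves and need a Jun partner, whereas Jun proteins can also form dimers of their own kind, and Atf3 pairs with itself or with Jun proteins. Several of these genes are immediate early genes, whose transcription begins within minutes of a signal without any new protein being made, and whose short-lived mRNA makes them a common marker of recently activated cells. In the pituitary, hypothalamic releasing hormones acting through cAMP and calcium are known to switch them on.

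Whole pituitary glands came from 28 C57BL/6J mice, 16 females and 12 males, which were 8 weeks old when they arrived at the laboratory; their age at collection is not given in the sources used here. Paradoxical sleep deprivation (PSD) lasted 12 h, in tanks with small columns surrounded by water, where the muscle slackness of REM sleep brings a mouse into contact with the water and wakes it. Restraint lasted 20 min, began about 18 h after PSD had ended, and was followed 10 min later by collection of the gland. In each sex the groups were home cage control, restraint alone, PSD alone, and PSD followed by restraint (PSD + restraint). Each female group held 4 mice, the male control group also 4, the male restraint group 2, and the male PSD and PSD + restraint groups 3 each. All mice, controls included, had been adapted to the PSD tanks beforehand, and all were killed by CO2 inhalation and rapid decapitation, so no group lacks handling of this kind. A single time point was sampled, and each library is 1 gland.

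Libraries held 14024465 to 52948531 counts with a median of 33389717. The 8 hormone and pituitary identity genes checked (Gh, Prl, Pomc, Cga, Tshb, Lhb, Fshb and Pou1f1) each reached 1 CPM (counts scaled to a common library size with TMM) in every group and together took 242627 to 364994 CPM, so the markers of the labelled tissue were present. In such bulk tissue, a change in the share of cells that express a gene and a change in RNA per cell cannot be told apart. A gene is called changed here when its Benjamini-Hochberg adjusted p from edgeR's quasi-likelihood test, over all genes tested, was at most 0.05 and its fold change at least 1.25 in either direction. SE stands for the standard error of a log2 fold change.

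Transcription of these genes is classically driven from short elements close to the start site. The 150 bases before the RefSeq start (GRCm38.p6, the build of the files) are shown, each 5′ to 3′ on the gene's own strand. They are given for Fosb, Fosl2 and Atf3, which separated restrained from unrestrained mice of both sexes. Those of Fos, Jun and Junb, which overlapped, are given beside them. Jund also overlapped and is not shown. Capitals mark TGACG, the core of the cAMP response element, or CGTCA, the same letters on the other strand. The windows are chr7:19310046-19310195 on the minus strand for Fosb, chr1:191183334-191183483 on the minus strand for Atf3, chr8:84978749-84978898 on the minus strand for Junb, chr12:85473740-85473889 on the plus strand for Fos, chr5:32136322-32136471 on the plus strand for Fosl2 and chr4:95052223-95052372 on the minus strand for Jun.
Fosb: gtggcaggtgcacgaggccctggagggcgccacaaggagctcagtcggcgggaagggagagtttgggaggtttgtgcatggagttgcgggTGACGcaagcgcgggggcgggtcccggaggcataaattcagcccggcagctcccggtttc
Atf3: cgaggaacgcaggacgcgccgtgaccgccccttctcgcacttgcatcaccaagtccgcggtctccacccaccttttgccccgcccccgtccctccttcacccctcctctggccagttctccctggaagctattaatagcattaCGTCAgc
Junb: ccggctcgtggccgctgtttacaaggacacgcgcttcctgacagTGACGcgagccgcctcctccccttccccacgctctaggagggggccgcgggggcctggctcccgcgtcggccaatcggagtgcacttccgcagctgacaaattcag
Fos: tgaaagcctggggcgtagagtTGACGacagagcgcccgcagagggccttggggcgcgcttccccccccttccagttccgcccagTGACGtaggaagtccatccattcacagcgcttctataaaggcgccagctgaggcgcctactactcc
Fosl2: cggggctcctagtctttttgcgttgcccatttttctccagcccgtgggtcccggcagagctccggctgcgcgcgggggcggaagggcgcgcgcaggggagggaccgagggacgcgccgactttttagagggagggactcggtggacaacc
Jun: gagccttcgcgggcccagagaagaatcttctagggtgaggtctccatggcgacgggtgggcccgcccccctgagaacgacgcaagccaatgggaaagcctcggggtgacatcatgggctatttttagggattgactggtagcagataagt
RefSeq promoter windows were found for 7 of the 8 members, all but Fosl1, and were searched over 250 bases before the start on both strands. Fos held the core at 129 to 125 and at 66 to 62 bases before its start, Fosb at 60 to 56, Junb at 106 to 102 and Atf3 at 7 to 3. Fosl2, Jun and Jund had no match. The core occurred in 17.8% of the 32851 RefSeq promoters of the same length. The full palindrome TGACGTCA (1.55% of promoters), which contains the core, the AP-1 site TGANTCA (6.75%) and the serum response factor (SRF) site, searched by its consensus (1.47%), had no match within these 250 bases of any member. Sites farther upstream were not searched. Nor were variants of these letters, such as the tgacatca in the Jun window. Members that separated the restrained mice are thus found both with the core (Fosb, Atf3) and without it (Fosl2) in this window. A single RefSeq start per gene was used. The windows of Atf3 and Fosl2 lie inside the gene spans given in this text. Bases before the outer ends of those spans were not searched. The window of Jund ends at 70697738, before its span given in this text, which begins at 70698949. Bases just before the Jund span were thus not searched either.

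Every restrained mouse of either sex lay above every unrestrained one for Fosb, Fosl2 and Atf3, while Fos itself varied from mouse to mouse within nearly every group. By test against controls, Fosb and Atf3 were called higher after restraint in both sexes, and Fosl2 in females. In males Fosl2 was called only after PSD + restraint. Its log2 fold change after restraint was 2.72 in males (2 restrained mice, edgeR adjusted p = 0.14) and 2.33 in females. A difference between the sexes in this response was not called. When the 13 restrained mice (restraint alone or PSD + restraint) were set against the 15 unrestrained ones (control or PSD), the lowest restrained mouse lay above the highest unrestrained mouse for Fosb (26.6 against 12.3 CPM), Fosl2 (191 against 172 CPM) and Atf3 (7.71 against 4.51 CPM). These are 3 of the 8 members, against 0.169% of the 18936 genes tested. Within females the same held for 4 members, Fosl1 being the fourth, against 0.935% of genes, and within males for Fosb, Fosl2 and Atf3, against 1.27% of genes. Fos, Jun, Junb and Jund overlapped in both sexes. Where single groups are described below as separate from each other, the share of all genes that do the same was not counted.

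**Figure D1:**
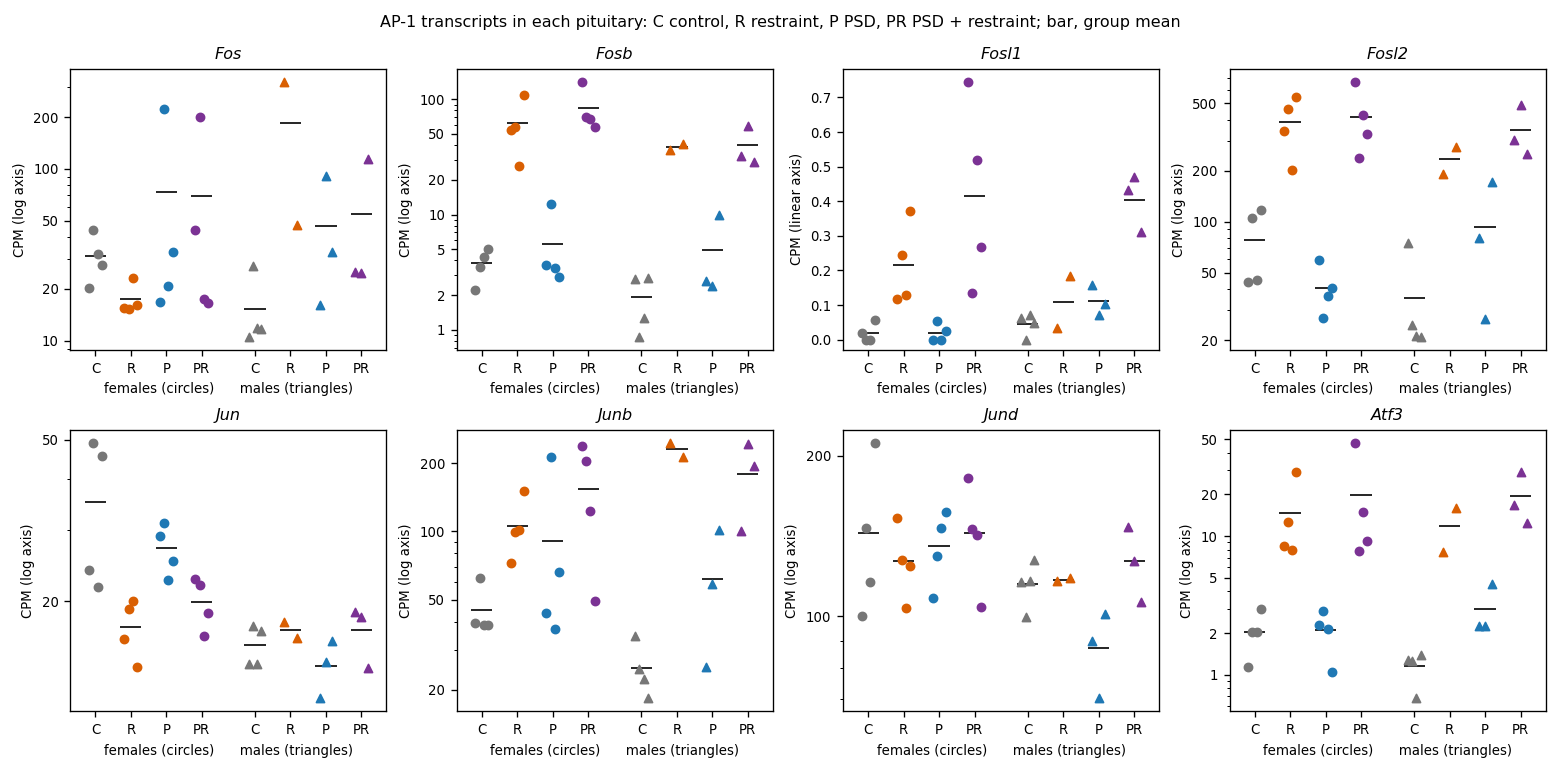
CPM of each AP-1 gene in each of the 28 pituitaries (log axis, but linear for Fosl1), by sex and treatment, with a bar at the group mean. Restrained mice (R, PR) lie above all unrestrained mice (C, P) for Fosb, Fosl2 and Atf3, whereas 1 mouse stands far above its group for Fos in several groups, for example 224 CPM among PSD females.

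By comparison, in females 3 of the 7 members tested were called higher after restraint than in controls, against 0.543% of 18059 genes, and 3 of 7 after PSD + restraint, against 2.20% of genes. Restraint on top of PSD, compared with PSD alone, also gave 3 of 7, against 0.941% of genes. The called members were Fosb, Fosl2 and Atf3 in each case. In males 3 of the 8 members were called after restraint (Fosb, Junb and Atf3), against 0.296% of 18271 genes, and 5 of 8 after PSD + restraint (Fosb, Fosl1, Fosl2, Junb and Atf3), against 2.56% of genes. PSD + restraint compared with PSD gave 2 of 8 in males (Fosb and Atf3), against 0.285% of genes. No member was called lower in these comparisons. In the model of all mice with sex as a term, 5 of 8 members were called after restraint, against 1.14% of 18936 genes, 5 of 8 after PSD + restraint, against 5.46%, and 4 of 8 for PSD + restraint against PSD (Fosb, Fosl1, Fosl2 and Atf3), against 2.01%. The median log2 fold change of the 8 members in that model was 2.23 after restraint and 2.53 after PSD + restraint, beside medians of 0.00055 and 0.0013 over all genes tested. Comparisons with the same controls share those mice and are not independent of each other.

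**Figure D2:**
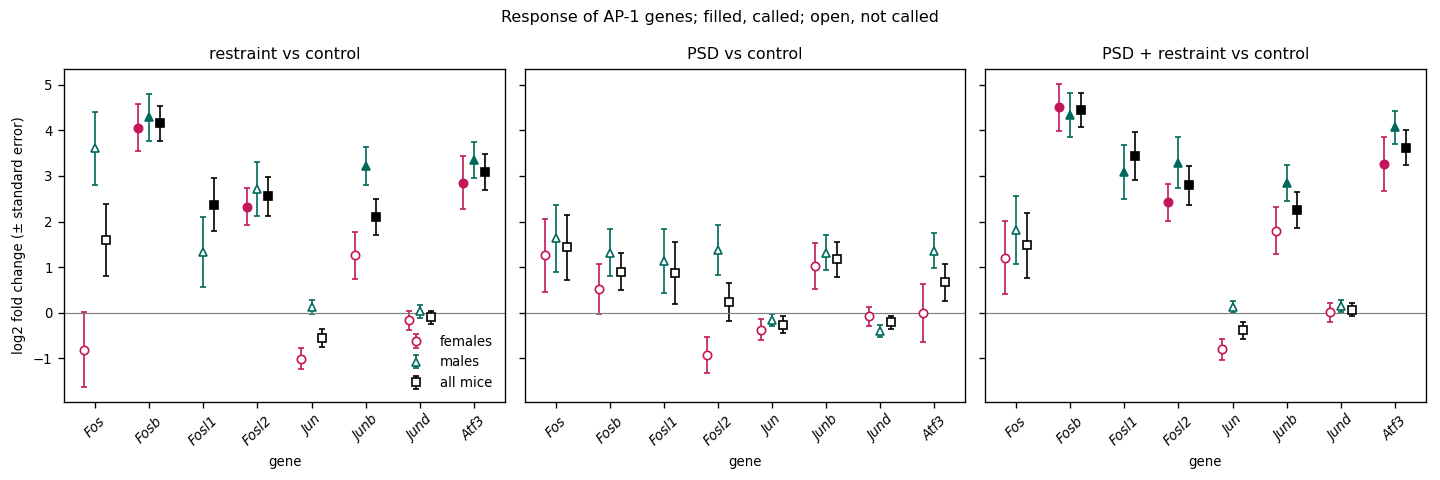
Log2 fold change against control with its standard error for each AP-1 gene, by treatment, in females, males and all mice (edgeR). Filled symbols passed the call limits: Fosb and Atf3 are filled in all 3 fits after restraint and after PSD + restraint, and no symbol is filled after PSD alone. Fosl1 has no female value because it did not pass the filter on low counts.

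Among the Fos family, Fosb showed the largest log2 fold change of any member in all 6 comparisons of restraint or PSD + restraint with control, or of PSD + restraint with PSD, in the fits by sex. Fosb (chromosome 7, 19302696 to 19310051, minus strand) encodes a Fos protein of which a shortened splice form is long-lived. The counts do not separate its splice forms. In females Fosb had 2.20, 3.53, 4.30 and 5.02 CPM in controls and 54.1, 57.5, 26.6 and 109.7 CPM after restraint. After PSD the female values were 3.64, 12.3, 3.43 and 2.90 CPM, and after PSD + restraint 142, 70.6, 66.7 and 58.0 CPM. Each restrained female was thus above each unrestrained female, by a clear gap. In males Fosb had 2.74, 0.862, 1.28 and 2.81 CPM in controls, 36.1 and 41.3 CPM after restraint, 2.63, 2.40 and 9.90 CPM after PSD, and 32.3, 59.1 and 28.4 CPM after PSD + restraint. Male groups separated in the same way, with PSD mouse 3 the highest of the unrestrained males. The log2 fold change after restraint was 4.06 (SE 0.51, adjusted p = 0.00075) in females, with 4.29 (SE 0.51, adjusted p = 0.0030) in males by edgeR. After PSD + restraint it was 4.50 (adjusted p = 0.00018) in females, with 4.34 (adjusted p = 0.00081) in males. Against PSD alone, PSD + restraint gave 3.98 in females (adjusted p = 0.00067) and 3.02 in males (adjusted p = 0.024). The male contrast with PSD was no longer called without PSD mouse 1, PSD mouse 2, PSD + restraint mouse 1 or PSD + restraint mouse 2, with adjusted p from 0.057 to 0.14, nor with robust dispersions (adjusted p = 0.12).

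Fosl2 (chromosome 5, 32135801 to 32157842, plus strand), the gene of the Fos-related antigen Fra-2, also separated by restraint, though by a narrow gap in males. Female controls had 44.0, 106, 45.1 and 117 CPM of Fosl2 and restrained females 344, 464, 202 and 545 CPM. PSD females had 59.3, 27.2, 36.3 and 40.7 CPM, and PSD + restraint females 671, 237, 424 and 329 CPM. The female controls fell in pairs, mice 2 and 4 above mice 1 and 3, yet all stayed below the lowest restrained female. Male controls had 74.9, 24.7, 21.1 and 20.8 CPM of Fosl2, restrained males 191 and 276 CPM, PSD males 79.9, 26.6 and 172 CPM, and PSD + restraint males 303, 487 and 252 CPM. Control mouse 1 stood apart from the other male controls, and PSD mouse 3 came close to the lowest restrained male. Fosl2 rose after restraint in females, with a log2 fold change of 2.33 (SE 0.40, adjusted p = 0.011), a call that was lost without control mouse 3 (adjusted p = 0.058) and when only the groups compared were fitted (adjusted p = 0.053). In males the value after restraint was 2.72 (SE 0.60, adjusted p = 0.14), which was called without control mouse 1 (3.40, adjusted p = 0.016), without PSD mouse 2 (2.72, adjusted p = 0.038) or without a filter on low counts (adjusted p = 0.040). After PSD + restraint Fosl2 rose by 2.42 (adjusted p = 0.0046) in females, with 3.29 (adjusted p = 0.0096) in males. The male call was lost with robust dispersions (adjusted p = 0.051). Without the mice numbered 2 of all groups the male value was 2.83, with mouse 3 alone in the male restraint group. In females Fosl2 was 3.34 higher after PSD + restraint than after PSD (adjusted p = 0.00064), and in males the difference was 1.91 (adjusted p = 0.28).

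Fosl1 (chromosome 19, 5447547 to 5455946, plus strand), the gene of Fra-1, was near the limit of detection. Its highest value was 0.745 CPM, and it was counted 0 to 3 times per mouse in controls of either sex and 4 to 17 times in restrained females. In females it was 0.0206, 0, 0 and 0.0570 CPM in controls, 0.118, 0.244, 0.130 and 0.373 CPM after restraint, 0, 0.0546, 0 and 0.0250 CPM after PSD, and 0.745, 0.135, 0.518 and 0.267 CPM after PSD + restraint. Although the female groups did not overlap by restraint, Fosl1 was below the count filter there and was not tested. Male values were 0.0637, 0, 0.0710 and 0.0480 CPM in controls, 0.0344 and 0.185 CPM after restraint, 0.158, 0.0702 and 0.103 CPM after PSD, and 0.432, 0.471 and 0.310 CPM after PSD + restraint. The male PSD + restraint mice were above all other males. Fosl1 was called there, at a log2 fold change of 3.09 (SE 0.59, adjusted p = 0.017), but not without PSD + restraint mouse 1 or mouse 2 (adjusted p 0.076 and 0.079). In all mice it was called after restraint (2.37, adjusted p = 0.031) and after PSD + restraint (3.44, adjusted p = 8.1e-05). The former call was lost on leaving out any 1 of 7 mice, namely female control mice 1, 2 and 3, male control mouse 2, female restraint mice 2 and 4 and male restraint mouse 3, with adjusted p from 0.051 to 0.093.

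Fos (chromosome 12, 85473890 to 85477273, plus strand), the founding member and the most widely used activity marker, did not follow restraint in this way. Fos had 20.3, 44.2, 31.9 and 27.5 CPM in female controls and 15.5, 15.2, 23.3 and 16.2 CPM in restrained females. In PSD females it had 16.7, 224, 20.9 and 33.0 CPM, and in PSD + restraint females 43.9, 201, 17.6 and 16.5 CPM. Restrained females were at the low end of the female range, and mouse 2 stood far above the rest in both PSD groups. Male values of Fos were 10.5, 27.1, 11.8 and 11.7 CPM in controls, 322 and 46.9 CPM after restraint, 16.1, 90.4 and 32.7 CPM after PSD, and 25.3, 24.9 and 114 CPM after PSD + restraint. Both restrained males were above all male controls, but they differed from each other by a factor of 6.86. Within a group the highest mouse exceeded the lowest by 1.53 times among restrained females and by 13.4 times among PSD females.

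No comparison called Fos. Its log2 fold change after restraint was -0.81 (SE 0.82, adjusted p = 0.84) in females, with 3.60 (SE 0.79, adjusted p = 0.14) in males. DESeq2 put the male value just inside the limit (adjusted p = 0.0497), as did edgeR without a filter on low counts (adjusted p = 0.040). After PSD it was 1.26 (SE 0.81, adjusted p = 0.40) in females, where leaving out PSD mouse 2 gave -0.37. After PSD + restraint in females it was 1.21 (SE 0.80, adjusted p = 0.42), where leaving out PSD + restraint mouse 2 gave -0.26. In males it was 1.63 (adjusted p = 0.55) after PSD and 1.82 (adjusted p = 0.23) after PSD + restraint. The log2 difference of PSD + restraint from restraint was -1.79 (SE 0.84, adjusted p = 0.48) in males. Leaving out restrained male 2 turned this difference to 0.20, with male 3 alone in the restraint group.

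The mouse with the highest Fos was the one numbered 2 in 6 of the 8 groups. Numbers in different groups name different animals, and whether they mark a shared cage, day or order of collection is not given in the sources used here. Dusp1, an immediate early phosphatase gene looked at after the values of Fos had been seen, was also highest in mouse 2 in 6 of 8 groups. For the other 4 early genes looked at in this way, mouse 2 was highest in 4 groups for Ier2, 3 for Btg2, 3 for Egr1 and 2 for Nr4a1. Of the other members, Jun and Junb were highest in mouse 2 in 4 groups each, Fosb, Fosl1 and Atf3 in 2 each, Fosl2 in 1 and Jund in 0. Dusp1 had 31.4, 70.4, 49.9 and 61.5 CPM in female controls, and 22.0, 130.4, 30.6 and 37.4 CPM in PSD females. In males Dusp1 had 246 and 84.7 CPM after restraint and 16.1, 38.9, 18.0 and 18.9 CPM in controls. The mice with much Fos thus also held much Dusp1, while Fosb sorted by restraint whatever the level of Fos: female PSD mouse 2, with 224 CPM of Fos, had 12.3 CPM of Fosb, and female restraint mouse 2, with 15.2 CPM of Fos, had 57.5 CPM of Fosb. Without the mice numbered 2, an alternative chosen after seeing these values, the model of all mice called 4 members after restraint (Fosb, Fosl2, Junb and Atf3) and the same 5 after PSD + restraint. In females it left 1 member called after restraint (Fosb) but gave 4 after PSD + restraint (Fosb, Fosl1, Fosl2 and Atf3), Fosl1 passing the count filter there. In males it left mouse 3 alone in the restraint group, so the male calls are not counted here.

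**Figure D3:**
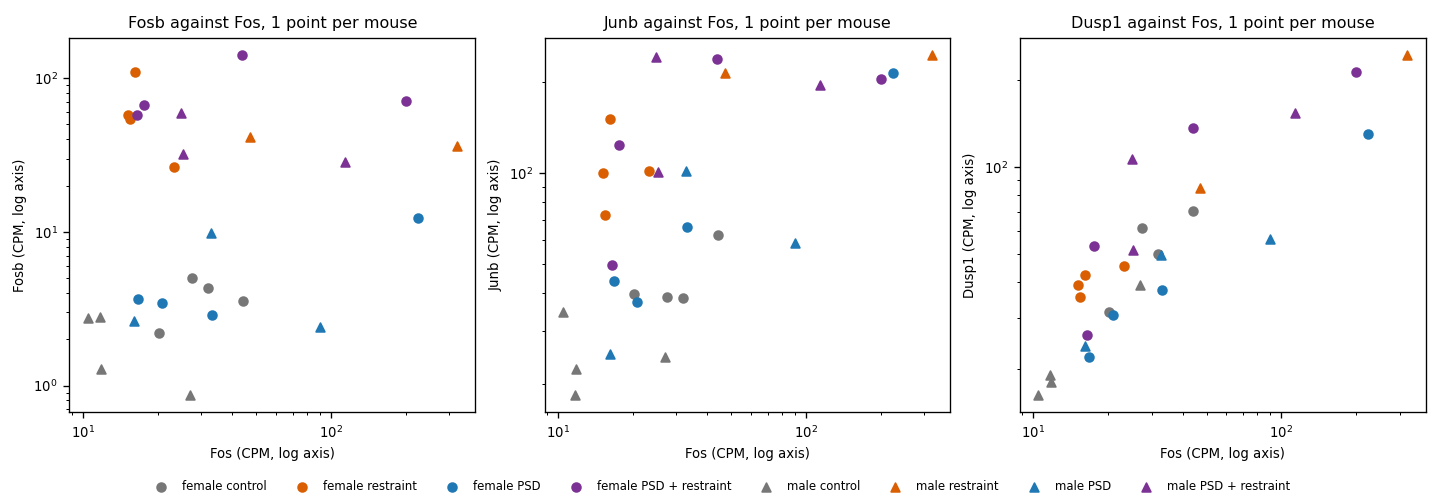
Fosb, Junb and Dusp1 against Fos in CPM (both axes log), 1 point per mouse, coloured by treatment, with circles for females and triangles for males. Restrained mice form a separate upper band for Fosb at all levels of Fos, whereas the mice with the most Fos are also among the highest for Dusp1.

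Of the Jun family, Junb alone was called after restraint. Junb (chromosome 8, 84974484 to 84978718, minus strand) encodes a Jun protein that is itself an immediate early product and a weaker activator than Jun at many sites. Female controls had 39.6, 62.2, 38.5 and 38.8 CPM of Junb and restrained females 72.7, 99.8, 101 and 151 CPM. PSD females had 43.7, 215, 37.2 and 66.3 CPM, and PSD + restraint females 239, 204, 124 and 49.4 CPM. Each female of the restraint group lay above each control, but PSD mouse 2, the same female as for Fos, reached the range of PSD + restraint. In males Junb had 34.4, 24.6, 22.4 and 18.3 CPM in controls, 247 and 214 CPM after restraint, 25.1, 58.8 and 102 CPM after PSD, and 101, 243 and 195 CPM after PSD + restraint. Restrained males were above all controls and, but for a touch between PSD mouse 3 and PSD + restraint mouse 1, above the PSD males. Junb rose in males by a log2 fold change of 3.21 after restraint (SE 0.42, adjusted p = 0.0048) and of 2.85 after PSD + restraint (SE 0.39, adjusted p = 0.0026). The former call was lost with robust dispersions (adjusted p = 0.073). Without the mice numbered 2 of all groups the male values were 3.09 and 2.56, with mouse 3 alone in the male restraint group. In females the values were 1.26 (SE 0.51, adjusted p = 0.41) and 1.79 (SE 0.51, adjusted p = 0.071). The latter was called without PSD mouse 2 (adjusted p = 0.021) or without PSD + restraint mouse 4 (adjusted p = 0.041), and by DESeq2 (adjusted p = 0.037). In all mice Junb was called after restraint (2.10, adjusted p = 0.0033) and PSD + restraint (2.26, adjusted p = 0.00037). Against PSD its difference in all mice was 1.09 (adjusted p = 0.16), and 1.58 (adjusted p = 0.015) without female PSD mouse 2.

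Jun (chromosome 4, 95049034 to 95052222, minus strand), the namesake partner of Fos, was lower in restrained females without passing the limit. Female controls had 23.9, 49.1, 21.7 and 45.6 CPM of Jun, restrained females 16.1, 19.1, 20.0 and 13.8 CPM, PSD females 29.0, 31.2, 22.6 and 25.1 CPM and PSD + restraint females 22.7, 21.9, 16.4 and 18.8 CPM. All 4 restrained females were below all 4 controls. The log2 fold change was -1.01 (SE 0.23, adjusted p = 0.058) after restraint and -0.80 (SE 0.23, adjusted p = 0.070) after PSD + restraint. Both values were past the limit by DESeq2 (adjusted p 0.0013 and 0.010) and without control mouse 1 (0.040 and 0.030) or control mouse 3 (0.025 and 0.027), and the first also when libraries were scaled by size alone (0.047). Control mice 1 and 3 were the controls with the least Jun. With other mice left out in turn the fall was as small as -0.80 after restraint (edgeR adjusted p up to 0.20). After PSD + restraint it was as small as -0.60 (up to 0.21). Males had 14.0, 17.4, 14.1 and 16.9 CPM of Jun in controls, 17.8 and 16.3 CPM after restraint, 11.6, 14.2 and 16.0 CPM after PSD, and 18.9, 18.4 and 13.7 CPM after PSD + restraint. These male groups overlapped throughout, with a log2 fold change of 0.13 (SE 0.15, adjusted p = 1.0) after restraint.

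Jund (chromosome 8, 70698949 to 70700616, plus strand), which is known as the steadily expressed Jun gene, differed little between groups. Its group means lay between 87.0 ± 15.7 CPM (SD, n = 3) in PSD males and 143 ± 49.2 CPM (SD, n = 4) in control females. After restraint its log2 fold change was -0.17 (SE 0.21, adjusted p = 0.89) in females, with 0.03 (SE 0.14, adjusted p = 1.0) in males. PSD males had 89.7, 70.1 and 101 CPM of Jund and PSD + restraint males 147, 127 and 106 CPM. These small groups did not overlap, though the share of all genes that separate them was not counted. The difference of 0.54 (SE 0.13) had an adjusted p of 0.15 by edgeR and of 0.0091 by DESeq2.

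Atf3 (chromosome 1, 191170296 to 191218039, minus strand), a stress-inducible factor that as a homodimer represses transcription, followed the pattern of Fosb and Fosl2. Female controls had 1.13, 2.04, 2.02 and 2.99 CPM of Atf3 and restrained females 8.54, 12.7, 7.95 and 29.2 CPM. PSD females had 2.29, 2.89, 2.14 and 1.05 CPM, and PSD + restraint females 47.1, 7.84, 15.0 and 9.30 CPM. No restrained female overlapped an unrestrained one. Male values of Atf3 were 1.27, 1.25, 0.675 and 1.39 CPM in controls, 7.71 and 16.0 CPM after restraint, 2.25, 2.24 and 4.51 CPM after PSD, and 16.9, 28.9 and 12.5 CPM after PSD + restraint. Males separated likewise, and all 3 PSD males were above all 4 controls. Atf3 rose after restraint by a log2 fold change of 2.85 (SE 0.58, adjusted p = 0.036) in females, with 3.34 (SE 0.39, adjusted p = 0.0030) in males. The female call was close to the limit and was lost on leaving out any of the 4 controls, restraint mouse 2 or 4, PSD mouse 1 or 3, or PSD + restraint mouse 3 (adjusted p from 0.051 to 0.13), and with robust dispersions (adjusted p = 0.070). After PSD + restraint Atf3 rose by 3.27 (adjusted p = 0.0082) in females, with 4.06 (adjusted p = 0.00015) in males. Against PSD the values were 3.27 (adjusted p = 0.014) in females, lost without PSD mouse 3 or 4 (adjusted p 0.053 and 0.051), and 2.70 (adjusted p = 0.014) in males, lost without PSD mouse 1 or 2 or PSD + restraint mouse 2 (adjusted p from 0.069 to 0.088).

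PSD alone, with glands taken about 18 h after its end, called no member by edgeR. This was 0 of 7 in females, against 0.0277% of genes, 0 of 8 in males, against 0.00547%, and 0 of 8 in all mice, against 0.671%. DESeq2 called no member either, while it called 442 genes in females, 85 in males and 286 in all mice, where edgeR called 5, 1 and 127. At an unadjusted p under 0.05 there was 1 member of 7 in females (Fosl2), beside 19.8% of genes, 6 of 8 in males (Fos, Fosb, Fosl2, Junb, Jund and Atf3), beside 8.85%, and 2 of 8 in all mice (Fosb and Junb), beside 17.6%. In males the values after PSD were 1.36 for Atf3 (SE 0.39, adjusted p = 0.34), 1.32 for Junb (SE 0.38, adjusted p = 0.34) and 1.38 for Fosl2 (SE 0.55, adjusted p = 0.51). They were 1.63 for Fos (SE 0.73, adjusted p = 0.55), 1.32 for Fosb (SE 0.51, adjusted p = 0.51) and -0.40 for Jund (SE 0.13, adjusted p = 0.40). Fosl2 was at -0.92 (SE 0.39, adjusted p = 0.21) in PSD females. The median log2 fold change of the members after PSD was 0.77 in all mice, beside 0.0068 over all genes. By sex it was -0.0040 in females, beside 0.0084 over all genes, and 1.32 in males, beside -0.0011.

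Prior PSD did not move the members past the limit among restrained mice. PSD + restraint compared with restraint called 0 of 7 in females (0.0332% of genes), 0 of 8 in males (0.00547%) and 0 of 8 in all mice (0.0951%). DESeq2 called no member, among 107, 123 and 65 genes called in these fits, where edgeR called 6, 1 and 18. The member with an unadjusted p under 0.05 was Fos in females (2.02, SE 0.83, adjusted p = 0.30) and Fosl1 in males (1.75, SE 0.63, adjusted p = 0.37) and in all mice (1.07, SE 0.45, adjusted p = 0.31), beside 14.1%, 10.5% and 13.5% of genes, so that 1 member is near these shares. For Fosb the difference between PSD + restraint and restraint was 0.44 (SE 0.42) in females, with 0.05 (SE 0.49) in males, and for Atf3 0.42 (SE 0.52) and 0.72 (SE 0.39). The interaction of PSD with restraint called 0 members, and 0% of genes, in females, males and all mice, by edgeR and by DESeq2. At an unadjusted p under 0.05 the interaction counted 766, 702 and 743 genes (4.24%, 3.84% and 3.92% of those tested). Among them were 0 members in females, 3 in males (Fos, Junb and Jund) and 0 in all mice. The male interaction values were -3.41 for Fos (SE 1.11), -1.68 for Junb (SE 0.58) and 0.51 for Jund (SE 0.20), each with an adjusted p of 1.0.

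Between the sexes, Jun was the member that differed in controls. Jun was higher in control females than in control males by a log2 difference of 1.16 (SE 0.20, adjusted p = 0.000275), and the lowest female, at 21.7 CPM, was above the highest male, at 17.4 CPM. This was 1 of 8 members, against 10.7% of genes, a share close to that background. Fosl2 was 1.13 higher in control females (SE 0.49, adjusted p = 0.13), and 1.81 (adjusted p = 0.020) without male control mouse 1. That mouse had 442 CPM summed over 6 neurointermediate lobe markers, the lowest of all mice, and the part of this in its AP-1 values was not tested. A difference between the sexes in the response itself was called for 0 members and for 0% of genes by edgeR in each of the 3 responses (restraint, PSD, PSD + restraint). DESeq2 called 0 members and 0, 24 and 10 genes. An unadjusted p under 0.05 was found for 804, 2038 and 1363 genes (4.25%, 10.8% and 7.2% of those tested). These included 3 members for restraint (Fos, Jun and Junb), 1 for PSD (Fosl2) and 1 for PSD + restraint (Jun). The female minus male difference of the restraint response was -4.41 for Fos (SE 1.27), -1.14 for Jun (SE 0.31) and -1.96 for Junb (SE 0.74), each with an adjusted p of 1.0.

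The make-up of the AP-1 pool was compared per length, as CPM per kilobase of exon. In control females Jund led with 86.0 ± 29.5 CPM per kb (SD, n = 4), followed by Junb (19.5 ± 5.06), Fos (13.2 ± 4.25), Jun (10.99 ± 4.47) and Fosl2 (8.05 ± 4.01). Atf3 (0.950 ± 0.353), Fosb (0.603 ± 0.193) and Fosl1 (0.00955 ± 0.0132) were far lower. Jund lay beyond the spread of Junb, while Junb and Fos, Fos and Jun, Jun and Fosl2, and Atf3 and Fosb were each within the sum of their SDs of the neighbour. In PSD + restraint females the level per kb was 85.9 ± 18.9 for Jund, 66.9 ± 36.8 for Junb, 42.9 ± 19.3 for Fosl2, 29.6 ± 37.6 for Fos, 13.5 ± 6.24 for Fosb, 9.20 ± 8.57 for Atf3 and 6.25 ± 0.909 for Jun (SD, n = 4). Fosl2 and Fosb thus stood higher in the order than in controls and Jun lower, below Fosb and Atf3, though Fosl2 and Fos, and Jun and Atf3, lay within their spread.

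As a share of the summed AP-1 level per kb, Jund made up 61.4% in control females, 40.4% in restrained females and 35.6% in PSD + restraint females. In males the share of Jund was 72.0% in controls, 25.3% after restraint and 33.5% after PSD + restraint. After PSD alone the share of Jund was 55.1% in females and 47.2% in males. Each PSD male (36.7 to 63.3%) lay below each male control (65.9 to 78.1%). Junb after PSD alone took 20.7% in females (controls 14.5%) and 21.9% in males. Fosl2 after PSD alone took 3.12% in females and 8.12% in males (controls 3.74%). Fosl2 went from 5.51% to 20.3% and 17.9% in females, and Junb from 11.3% to 35.5% and 32.4% in males. Jun went from 7.73% to 2.95% and 2.68% in females. These shares are means over mice, and transcript shares say nothing of protein. The summed level was 139 ± 40.1 CPM per kb (SD, n = 4) in control females, 192 ± 36.2 (SD, n = 4) after restraint and 255 ± 93.5 (SD, n = 4) after PSD + restraint, with overlap between groups. In males it was 95.6 ± 5.42 (SD, n = 4), 290.1 ± 82.7 (SD, n = 2) and 234 ± 39.3 (SD, n = 3), without overlap between controls and either restrained group.

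**Figure D4:**
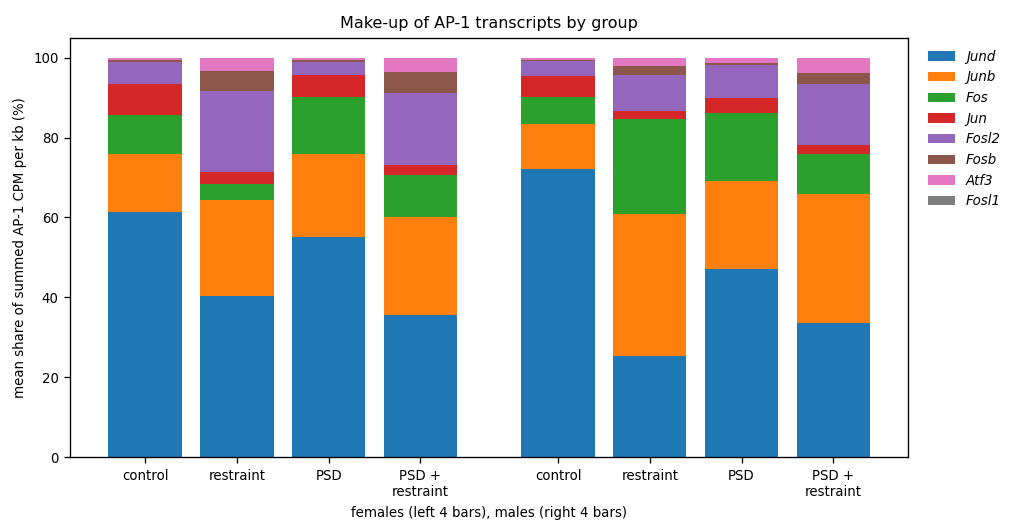
Mean share of each AP-1 gene in the summed CPM per kilobase, in percent, by group, females on the left and males on the right. Jund takes 61.4% in control females and 72.0% in control males, and less in every restrained group, where Fosl2 and Junb take more. After PSD alone Jund also takes less, 55.1% in females and 47.2% in males.

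The genes whose 8 group means were most like those of a member, by the root mean square difference in log2 CPM after centring each sex, included other members and other early genes. For Fosb they were Nr4a2 (0.32) and Nr4a3 (0.40), early genes of orphan nuclear receptors, with a root mean square of Fosb itself of 1.99. For Fosl2 they were Atf3 (0.26) and Gem (0.37), and for Atf3 Gem (0.21) and Fosl2 (0.26), Gem encoding an inducible small GTP-binding protein. For Junb they were Npas4 (0.34), an activity-dependent factor, and Mir335 (0.36). For Fosl1 they were AK050700 (0.29) and Pvr (0.29), but the pattern of Fosl1 rests on few counts.

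The counts of related genes that follow are for all mice, where 1.14% of all genes tested were called after restraint, 0.671% after PSD and 5.46% after both. Among other bZIP genes, which pair or compete with AP-1 proteins, few were called. Of 12 tested in all mice, 1 was called higher after restraint and 2 after PSD + restraint, with 0 after PSD and none lower in any of these. These were Maff, a small Maf factor, after restraint (1.29, adjusted p = 0.0038) and PSD + restraint (1.44, adjusted p = 0.00022), and Jdp2, a repressor that pairs with Jun, after PSD + restraint (0.33, adjusted p = 0.048). Mafg (0.25, adjusted p = 0.0063) was under the fold limit, and Mafk had 0.19 (adjusted p = 0.11). The list's median after PSD + restraint was 0.15.

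Of 22 genes upstream of AP-1, the MAP kinases, their activators and the promoter-bound factors, 1 was called after PSD + restraint and 0 after restraint or PSD, with a list median of -0.066 after PSD + restraint. This is near the share of all genes called. The gene was Srf, whose product binds the serum response element of the Fos promoter (0.44, SE 0.066, adjusted p = 4.8e-05). Elk1 (-0.25, adjusted p = 0.0054) and Map2k4 (-0.23, adjusted p = 0.024) were under the fold limit. Of 6 tested genes for decay of AP-1 mRNA or turnover of Jun protein, Zfp36, which destabilises mRNA with AU-rich elements, was called higher after PSD + restraint (0.43, adjusted p = 0.045), and Fbxw7, a ubiquitin ligase subunit that targets Jun, lower (-0.41, adjusted p = 0.0063). Itch (-0.13, adjusted p = 0.078) and Zfp36l1 (0.17, adjusted p = 0.27) were not called, and none was called after restraint or PSD.

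Of 14 textbook AP-1 target genes tested, such as matrix proteases and cytokines, 0 were called after restraint, 1 after PSD (Plau, the urokinase gene, 0.62, adjusted p = 0.044) and 1 after PSD + restraint (Spp1, the osteopontin gene, 0.59, adjusted p = 0.019), which for the latter is near the share of all genes called. Vegfa (0.31, adjusted p = 0.018) was under the fold limit, and Ccl2 (1.12, adjusted p = 0.059) and Mmp9 (1.38, adjusted p = 0.077) missed the adjusted p limit. For restraint the list's median log2 fold change was 0.015, while PSD gave 0.23 and the combination 0.21.

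Markers of other tissue and cell types moved with some of these groups, and their part in the AP-1 values was not tested, except where a value is given. Of 6 neurointermediate lobe markers, 0 were called after restraint or PSD and 2 after PSD + restraint in all mice (Pcsk2, 0.996, and Oacyl, 0.86). Their summed level was 442 to 1807 CPM in male controls and 1871 to 3391 CPM in PSD + restraint males, and 1272 to 1904 CPM in control and 1844 to 2962 CPM in PSD + restraint females. After PSD alone it was 1806 to 4324 CPM in females and 1820 to 2528 CPM in males. The neurointermediate lobe score was the mean log2 CPM of Pcsk2, Pax7 and Oacyl, without the other lobe markers. With this score as a covariate, Fosb and Fosl2 stayed called after PSD + restraint in both sexes, and Atf3 in males. Atf3 in females then had 3.04 (adjusted p = 0.074) and Fosl1 in males 3.07 (adjusted p = 0.088). Of 9 leukocyte markers 3 were called higher after PSD + restraint (S100a8, S100a9 and Cd68) and 0 after restraint, with a summed level of 58.4 to 111 CPM in PSD + restraint males and 57.6 to 60.8 CPM in male controls. Cd3e stayed under 1 CPM in all groups. Forebrain markers reached 307 CPM in PSD female 1 against 36.4 CPM in the lowest of its group, and Neurod2 and Neurod6 were under 1 CPM in all mice. Of the 7 forebrain, 3 erythrocyte and 5 endothelial markers tested, 0 were called in the comparisons of all mice with control.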

How the data were processed

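The authors prepared stranded mRNA libraries, used MapSplice to align the read pairs to mm10 and HTSeq 0.9.1 (intersection-nonempty) to count them per UCSC gene, and deposited these counts as they were, with no normalization. The strand setting is not given in the sources used here, and overlapping genes could share reads. A deposited table of normalized counts was not used. Groups came from the sample labels.

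Counts were analysed in R 4.3.3 with edgeR 4.0.16 and limma 3.58.1 (TMM, filterByExpr, quasi-likelihood test), in place of the study's DESeq2 1.16.1 and with its model terms: PSD, restraint and their interaction within each sex, the same plus sex for all mice. A further model with 1 mean per sex and treatment gave differences between the sexes. Standard errors were the fold change divided by the square root of F. CPM was computed over all genes, with a prior count of 2 on the log2 scale. Depth was 14024465 to 52948531 counts per mouse. Each library is 1 mouse, and p-values measure the spread between these mice. Mice of a group were compared as separate animals. Positions are from GENCODE M21 and promoters from RefSeq, both on GRCm38.

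The members and gene lists were chosen with earlier results of these data known. Beside the 8 members, the text names from each list at most 4 genes, those with the smallest p after PSD + restraint in all mice, any other called gene of a count of 5 or fewer (chosen after its values were seen), the 2 genes most like each member called in all mice, and 5 early genes (Dusp1, Ier2, Btg2, Egr1 and Nr4a1). 1 gene that this rule would name is not reported here. In simulated counts with 200 genes changed by 1 log2 unit, edgeR recovered 153 and 151 for restraint and PSD + restraint in females, 144 and 149 in males and 162 and 164 in all mice, with 4 to 15 false calls.

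Alternatives were DESeq2 1.42.0 (Wald test), its size factors in edgeR, library size alone, robust dispersions, no filter, at least 10 counts, a neurointermediate lobe score as covariate, a replicate block, fits of just the groups compared, 0.5 as prior count, and fits that left out each mouse in turn. Leaving out all mice numbered 2 was chosen after seeing the data, and it left mouse 3 alone in the male restraint group.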

Additional observations from a re-analysis of the deposited data

Results flagged for a closer look

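In the groups of 4 mice, the highest and the lowest mouse were each set against the others by Dixon's gap ratio at the 95% level. For normally distributed values, chance flags either end in about 1 in 20 groups. The ratio was taken on CPM without logs, and no share over all genes was counted. Of 40 such tests (8 members in 5 groups) 9 found a mouse far from the others, each time the highest. The 40 tests use the same mice for related genes and are not independent. For these reasons 9 of 40 cannot be read as an excess over 1 in 20. Fos stood out in restrained females (mouse 3, 23.3 CPM, next 16.2 CPM), PSD females (mouse 2, 224 CPM, next 33.0 CPM), PSD + restraint females (mouse 2, 201 CPM, next 43.9 CPM) and male controls (mouse 2, 27.1 CPM, next 11.8 CPM). Junb stood out in female controls (mouse 2, 62.2 CPM, next 39.6 CPM) and in PSD females (mouse 2, 215 CPM, next 66.3 CPM). Fosb stood out in PSD females (mouse 2, 12.3 CPM, next 3.64 CPM) and in PSD + restraint females (mouse 1, 142 CPM, next 70.6 CPM). Fosl2 stood out in male controls (mouse 1, 74.9 CPM, next 24.7 CPM). PSD female 2 was thus high for Fos, Fosb and Junb at once. Fosl1, Jun, Jund and Atf3 had no such mouse. The other 3 male groups held fewer than 4 mice and were not examined.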

How the results depend on the processing

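Of the counts of members called, 658 alternative values stayed within 1.5 times and 20 moved. In females after restraint the count went from 3 to 1 without all mice numbered 2. After PSD + restraint in females it went from 3 to 5 with DESeq2, and ranged from 3 to 5 with 1 mouse left out. These counts mix directions. DESeq2 added Junb as higher (1.78) and Jun as lower (-0.81), and Jun was also called lower without control mouse 1 or 3. In males after restraint it went from 3 to 5 without a filter on low counts. For PSD + restraint against PSD in males it went from 2 to 1 with robust dispersions and to 1 with only the groups compared, and ranged from 0 to 2 with 1 mouse left out. Without all mice numbered 2 the male restraint group held mouse 3 alone, so male counts are not given for that fit. Between control females and males it ranged from 1 to 2 with 1 mouse left out. Correlations of deviations between same-numbered mice of different groups ranged from -0.35 to 0.33 over 24 pairs in females (median -0.018) and from -0.22 to 0.12 over 15 in males (median -0.069), so the numbers were not used as pairs. With a replicate block the count was 0 in males after restraint, 3 after PSD + restraint and 0 against PSD, and 0 between control females and males, and the block moved no other count by over 1.5 times.

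Of single members, 5160 values kept direction and side of the limit, 56 lost a call, 19 gained one and 12 reversed (where the main value was at least its standard error). Fos after PSD in females turned to -0.083 with the neurointermediate lobe score, between -0.37 (without PSD mouse 2) and 1.58 with 1 mouse left out, and -0.16 without all mice numbered 2, and after PSD + restraint to -0.26 without PSD + restraint mouse 2 (highest 1.52 with 1 mouse left out) and -0.039 without all mice numbered 2. In males Fos in PSD + restraint against restraint ranged from -2.88 to 0.20 (without restraint mouse 2) with 1 mouse left out and was 0.56 without all mice numbered 2, and its interaction in all mice ranged from -2.22 to 0.013 and was 0.38. Fosl1 after restraint in males ranged from -0.37 (without restraint mouse 3) to 1.94, while Jun after PSD + restraint in males turned to -0.053 with the lobe score, and Atf3 in PSD + restraint against restraint in males to -0.10 without all mice numbered 2. These causes were not tested. In males, fits without restraint mouse 2 or without all mice numbered 2 held mouse 3 alone in the restraint group. The fit without restraint mouse 3 held mouse 2 alone there. DESeq2 gave Fosl1 no adjusted p in males after PSD + restraint and in all mice against PSD.

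Limits: restrained males number 2, Fosl1 rests on at most 17 counts per mouse, and 1 time point and whole glands were measured. Depth differed between mice by 14024465 to 52948531 counts, which limits Fosl1 more than the other members.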
